A study of Danio rerio with 12 samples.

Results

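The genes described here are those of the cell division cycle and of DNA replication on a zebrafish expression array. They were chosen by symbol alone: probe sets whose platform symbol begins with ccna, ccnb, ccnd, ccne, mcm, orc, cdc, cdk, aurk, bub, pola, pold, pole, rfc, rrm or plk, together with pcna and tk1, and without plk3, cdk9 and cdc73. This gave 121 probe sets of 97 genes, out of 15502 probe sets with 8793 distinct symbols. The rule itself uses no measured value, but it was set with earlier results of these data known. Roles were assigned from the symbol. In this way 27 probe sets were placed in mitosis, among them all genes whose symbol begins with cdca, and 5 in the cyclins and kinases of G1 and S phase. Origin licensing and the replicative helicase had 19, and the DNA polymerases with their clamp and clamp loader 15. A further 5 belonged to deoxynucleotide supply, 4 to inhibitors of cyclin-dependent kinases and 3 to the anaphase-promoting complex. The last 43 share a prefix with these genes but were set apart as known mainly for other work, such as the neuronal kinase cdk5 or the small GTPase cdc42. The split is rough, since some of them, such as plk4, cdk7 and cdc34a, also act in the cell cycle. Whether each cdca gene, such as cdca4, cdca7a and cdca7b, has a mitotic role was not checked.

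A dividing cell copies its DNA in S phase and separates the copies in mitosis. Origin recognition complex proteins and Cdc6 load the Mcm helicase onto DNA in G1, S-phase kinases start it, and polymerases held by the Pcna clamp copy the strands with deoxynucleotides made by ribonucleotide reductase and thymidine kinase. Cyclin B with Cdk1 then drives entry into mitosis, and the anaphase-promoting complex with Cdc20 ends it. In vertebrates p53 restrains this cycle after DNA damage or oncogene activation, and activated BRAF drives proliferation through ERK signalling but can also cause a lasting arrest. In a zebrafish embryo of this age the dividing cells lie mostly in growth zones such as the retinal margin, the brain ventricles and the gut.

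Total RNA of whole zebrafish embryos at 80 hours post fertilization was hybridised to 12 Affymetrix arrays, 3 for each of 4 genotypes. Wild type was the Tu strain. The BRAF group was homozygous for a stable transgene, tg(mitf-BRAFV600E), in which the mitf promoter drives activated BRAF in pigment cells and their precursors. The p53 group was homozygous for the loss-of-function allele p53-M214K, and the BRAF;p53 group carried both. Embryos came from incrosses of fish of each genotype and received no other treatment that the labels name. The number of embryos or clutches behind a sample is not stated, and p53 samples 1 and 2 carry the source names 1a and 1b. For that reason p-values reflect only how these samples vary, which may be technical variation. BRAF against wild type and BRAF;p53 against p53 ask what the transgene changed with and without p53 function. The contrasts of p53 against wild type and BRAF;p53 against BRAF ask the same of the loss of p53 function, without and with the transgene. BRAF against p53 and BRAF;p53 against wild type differ in both, so their differences cannot be given to either alone. Since each genotype had its own incrosses, genotype and line of fish cannot be told apart. The mitf promoter limits the transgene to a small share of the cells of a whole embryo, so the values describe the embryo and not the cells that carry the active promoter.

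Values are log2 expression centred on each probe set's own median over the 12 arrays. For 116 of the 121 members a value of 0 is therefore the middle array and not absence. The other 5, ccnb1l, cdk5rap2, bub1bb, cdca9 and a probe set of mcm6l, have a median below 0, and how they were scaled is not known. Levels cannot be compared between genes. How bright a probe set was is unknown, so weak and strong signals could not be told apart, and the embryo label could not be checked against marker levels. In bulk RNA, fewer cells of a type and less RNA per cell cannot be told apart either. The number of arrays limits the precision. A value after ± is the standard error of a difference between genotype means of 3 arrays each, unless SD is written, and adjusted p-values are limma's, two-sided, with Benjamini-Hochberg adjustment over all 15502 probe sets.

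Single arrays stood apart in these genes before any comparison. The median of the 121 probe sets was 0.24 on BRAF replicate 1 and -0.05 on each of the other BRAF arrays. BRAF replicate 1 held the highest of the 12 values for 61 members, or 50.4%, against 33.2% of all probe sets. Wild-type replicate 2 held it for 21 members, or 17.4%, against 8.68% of all. On that array the median was 0.15, against 0.03 and -0.0039 on wild-type replicates 1 and 3. Across all probe sets BRAF replicate 1 correlated with BRAF replicates 2 and 3 at 0.564 and 0.409, while those correlated with each other at 0.834. These correlations are across genes of 1 array pair and carry no test. The median SD of a member between replicates was 0.230 in BRAF embryos, 0.163 in p53, 0.136 in wild type and 0.102 in BRAF;p53. For all probe sets it was 0.172, 0.156, 0.121 and 0.100 in the same order, so BRAF replicates were the most variable in these genes and BRAF;p53 replicates the most alike. Markers of neural and retinal progenitors, which divide at this age, include the member ccnd1. These markers had medians of 0.13 on BRAF replicate 1 and 0.12 on wild-type replicate 2, their highest on any array. On BRAF replicate 1 the median of all probe sets was also raised, at 0.08, and that of neural crest and pigment markers was 0.21. On wild-type replicate 2 those medians were -0.01 and 0.004. The lowest progenitor median was -0.27 on p53 replicate 2. The part of progenitors in the results below was not tested.

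**Figure D1:**
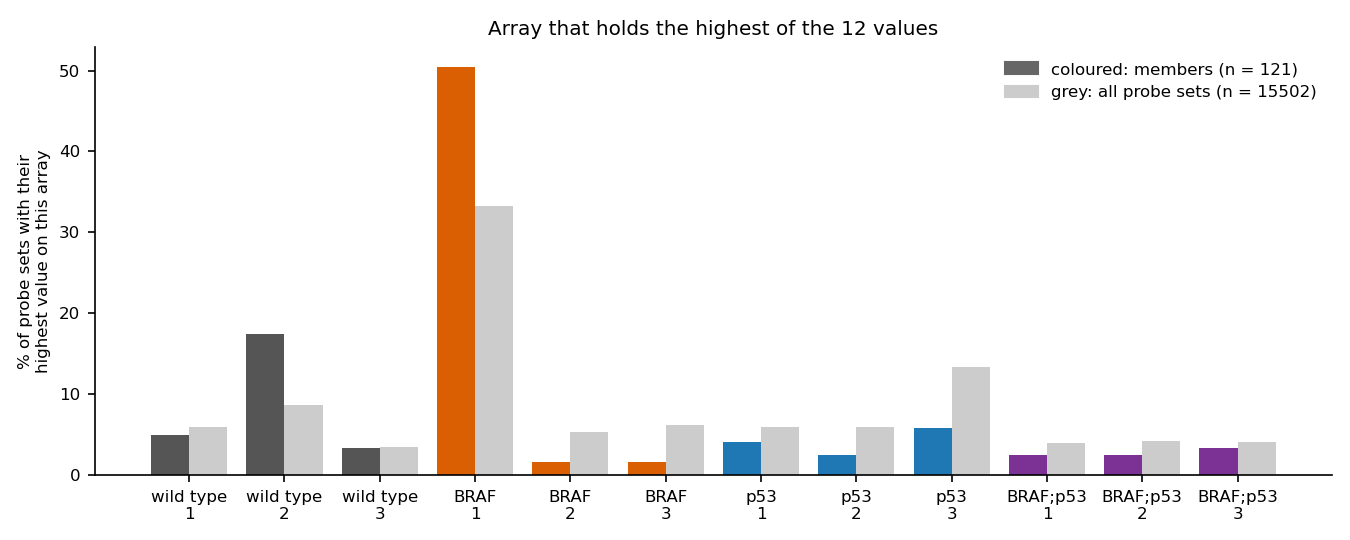
Percentage of probe sets whose highest value lay on each of the 12 arrays (y axis, %), with the 121 cell cycle and replication probe sets as coloured bars and all 15502 probe sets as grey bars. BRAF replicate 1 held the highest value of 50.4% of the members and wild-type replicate 2 of 17.4%.

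**Figure D2:**
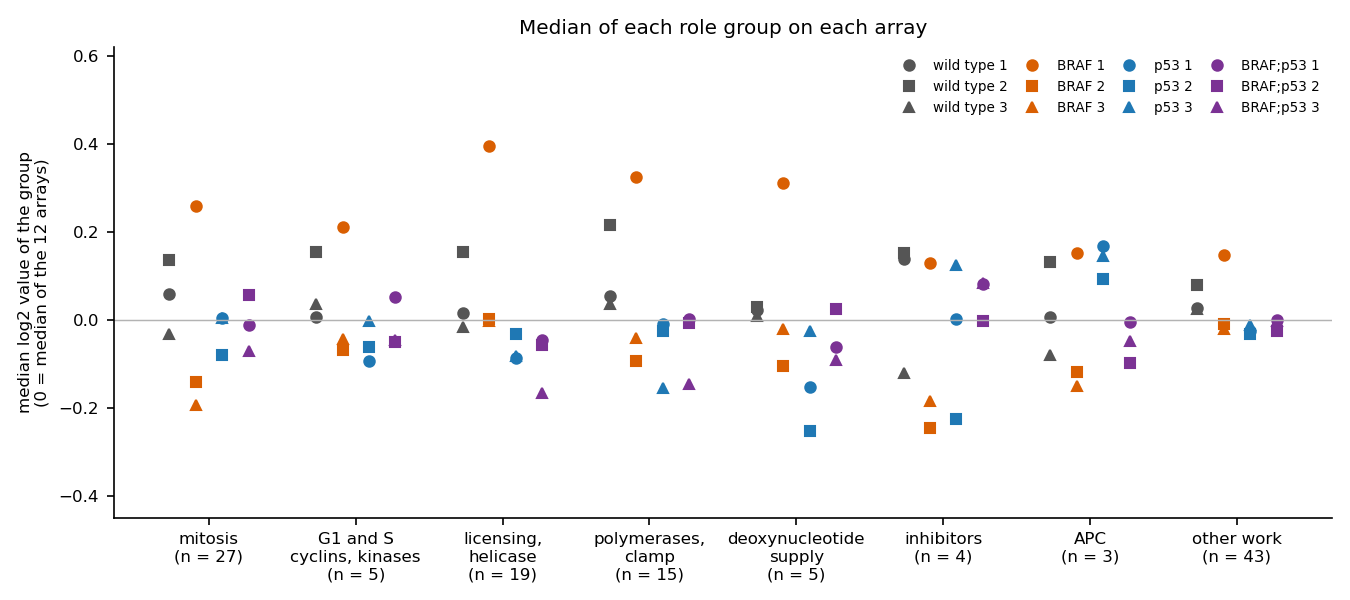
Median log2 value of each role group on each array (y axis, log2, where 0 is the median of the 12 arrays), with colour for genotype and marker shape for replicate. BRAF replicate 1 lies at 0.40 for licensing and helicase genes while BRAF replicates 2 and 3 lie at 0.0019 and -0.0037.

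Most of these genes differed little between genotypes. The distance between the highest and lowest of the 4 genotype means had a median of 0.310 on the log2 scale among members and 0.300 among all probe sets. It was under 0.5 in 89 of 121 members, or 73.6%, and in 76.2% of all. It reached 1 in 946 of the 15502 probe sets and in 5 of the 121 members: cdca5, cdc42se1, rfc1, a probe set of cdc25b and cdc34a. By limma's F test over the 4 genotypes 15 members or 12.4% passed, against 9.43% of all probe sets. In the 6 pairwise contrasts and the interaction together, 20 probe sets of 19 genes passed at an adjusted p under 0.05. Of these 20, 13 lay among the 78 probe sets of the cell cycle role groups and 7 among the 43 set apart for other work. How many of all probe sets passed in at least 1 contrast was not counted. In all 39 pairwise calls every array of 1 genotype lay above every array of the other. The same arrays gave the calls, so this is no separate support for them. How often it holds among all called probe sets was not counted.

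Calls were few in every contrast, and the counts are given with the share of all probe sets that passed the same test. Against wild type, BRAF embryos had 3 members higher and 7 lower by limma, where 3.19% of all probe sets were higher, 3.22% lower and 6.41% either. In p53 mutants 0 members were higher and 2 lower, where 0.755% of all were higher, 1.08% lower and 1.83% either. There 21 members passed at an unadjusted limma p under 0.05, against 14.3% of all. In BRAF;p53 embryos 1 was higher and 2 lower than in wild type, where 0.974% of all were higher, 0.974% lower and 1.95% either. Against p53 mutants, BRAF;p53 embryos had 4 higher and 1 lower, where 1.5% of all were higher, 1.44% lower and 2.94% either. Against BRAF embryos they had 3 higher and 2 lower, where 2.03% of all were higher, 2.48% lower and 4.5% either. BRAF against p53 gave the most, 9 higher in BRAF and 5 lower, where 4.15% of all were higher, 3.28% lower and 7.44% either. In the interaction, which asks whether the transgene's effect differed with and without p53 function, 4 members had a positive and 1 a negative value past the threshold, where 1.61% of all were positive, 1.6% negative and 3.21% either. These contrasts share arrays, so their calls are not independent of each other. With p53 samples 1a and 1b averaged, as they would be if they were 1 sample, 12 of the 44 calls were lost, with an adjusted p of 0.0531 to 0.119, and BRAF against p53 gave 10 in place of 14. Lost were ccnb1 in BRAF against wild type, cdc123 in p53 against wild type, cdca5 in BRAF;p53 against wild type, cdc42se1, cdk8 and rrm2b in BRAF;p53 against p53, and cdc42ep4a in BRAF;p53 against BRAF. Also lost were cdk16, pole3 and both tk1 probe sets in BRAF against p53 and the interaction of rrm2b. When only the genotypes compared entered the fit, 24 of the 39 pairwise calls were lost, with an adjusted p of 0.0531 to 0.18, among them all but cdca5 and cdc42se1 in BRAF against p53.

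In both genotypes without p53 function most members lay below wild type. The median member differed from wild type by -0.12 in p53 mutants and by -0.10 in BRAF;p53 embryos, where the medians over all probe sets were 0.0015 and -0.01. Without wild-type replicate 2 these member medians were -0.07 and -0.04. In BRAF;p53 against BRAF, the other comparison of p53 loss, the member median was -0.05 and that of all probe sets -0.06, with 75 of 121 members lower where 60.4% of all were. In p53 mutants 90 of 121 members were below wild type (49.7% of all probe sets), or 80 without wild-type replicate 2. In BRAF;p53 embryos 85 were (53.9% of all), or 75 without wild-type replicate 2. Of the 43 members set apart for other work 30 lay below wild type in p53 mutants, with a median of -0.09. In BRAF;p53 embryos 23 of them did, with a median of -0.06. The lean in p53 mutants was therefore not confined to members with a cell cycle role. Both contrasts with wild type rest on the same arrays, 1 of which stood high in these genes. Of 87 probe sets of other cell cycle genes 58 lay below wild type in p53 mutants, with a median of -0.09, and 47 in BRAF;p53, with a median of -0.02. Of 24 progenitor probe sets, 2 of them of the member ccnd1, 17 lay below wild type in p53 mutants, with a median of -0.10. In BRAF;p53 embryos 14 did, with a median of -0.0059. The part of progenitor cells in these values was not tested. In BRAF embryos the median was -0.0072 with 59 members above wild type (57.9% of all), and without BRAF replicate 1 it was -0.13 with 38 above. Groups did not overlap in 29 members for BRAF against wild type (28.4% of all probe sets), 33 for p53 against wild type (19.1%) and 38 for BRAF;p53 against wild type (25.3%). Of the 33 in p53 mutants 27 lay below wild type (10.4% of all) and 6 above (8.68% of all). Of those 27, 13 were members set apart for other work and 0 were mitotic. Of the 38 in BRAF;p53 embryos 31 lay below wild type (12.9% of all) and 7 above (12.4% of all). Of the 29 in BRAF embryos 17 lay below wild type (9.64% of all) and 12 above (18.7% of all). The other contrasts gave 28 for BRAF;p53 against p53 (21.9%), 31 for BRAF;p53 against BRAF (29%) and 34 for BRAF against p53 (23.4%).

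Among the mitotic genes the largest change was in cdca5, which encodes sororin, a protein that holds sister chromatids together until anaphase. Its values were 1.01, 1.34 and 0.09 in wild type, -0.55, -0.64 and -0.53 in BRAF, 1.28, 1.36 and 1.24 in p53 and -0.10, -0.43 and -0.67 in BRAF;p53. All 6 arrays with the transgene lay below all 6 without it, and wild-type replicate 3 lay well below the other wild-type arrays. Against wild type cdca5 fell by 1.39 ± 0.26 in BRAF embryos (limma adjusted p = 0.00794) and by 1.21 in BRAF;p53 (limma adjusted p = 0.0361). Against p53 mutants it fell by 1.69 in BRAF;p53 (limma adjusted p = 0.0051) and was lower by 1.86 in BRAF, a log2 difference of -1.86 (limma adjusted p = 0.00145). The interaction was -0.30 ± 0.36 (limma adjusted p = 0.689), which does not show that the effect was the same in both p53 states. The fall in BRAF;p53 against wild type held in 3 of 12 fits that left out 1 array, those without BRAF replicate 1, p53 replicate 3 or wild-type replicate 3, with an adjusted p of 0.0519 to 0.134 in the others. The other cdca5 calls held in all 12, but with only the genotypes compared the fall against wild type in BRAF had an adjusted p of 0.0531.

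The remaining mitotic genes gave a mixed picture. The cyclin gene ccnb1, whose product activates Cdk1 at mitotic entry, had values of 0.27, 0.37 and 0.02 in wild type against -0.0064, -0.75 and -0.54 in BRAF, and BRAF replicate 1 almost touched the wild-type range. It fell by 0.65 ± 0.17 in BRAF embryos (limma adjusted p = 0.0484), a call that held only without BRAF replicate 1 and had an adjusted p of 0.0514 to 0.168 without any other array. The phosphatase gene cdc25b, which switches Cdk1 on, is read by 3 probe sets. On the first of them wild type stood at 0.55, 0.37 and 0.49 and BRAF at -0.0025, -0.82 and -0.39, a fall of 0.87 ± 0.18 (limma adjusted p = 0.0151). That call was lost without wild-type replicate 1 (limma adjusted p = 0.058) or 3 (limma adjusted p = 0.051). The other cdc25b probe sets had differences of 0.01 and 1.05 in the same contrast (limma adjusted p = 0.98 and 0.0532), so the 3 did not point one way.

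Other mitotic genes did not pass in any contrast. Among them were cdk1, the cyclin genes ccna1, ccna2, ccnb2 and ccnb3, the kinase genes plk1 and aurka, the checkpoint genes bub3, bub1ba and bub1bb, and cdc20, the activator of the anaphase-promoting complex. Their F-test adjusted p in limma ran from 0.278 for bub1bb to 0.923 for a probe set of ccnb3. The kinase cdk1 averaged 0.09 ± 0.13 in wild type, 0.0040 ± 0.19 in BRAF, -0.21 ± 0.19 in p53 and 0.03 ± 0.12 in BRAF;p53 (SD, n = 3). The polo kinase plk1, which acts on spindle and centrosomes, averaged 0.11 ± 0.15, -0.13 ± 0.36, -0.0082 ± 0.09 and -0.04 ± 0.09 in the same order (SD, n = 3). The p53 mean of cdk1 lay below every array of the other genotypes, although p53 replicate 3 lay inside their range (limma F-test adjusted p = 0.358). The plk1 groups overlapped (limma F-test adjusted p = 0.686). In BRAF embryos the array of replicate 1 set that spread, with plk1 at 0.28 on it and -0.40 and -0.27 on the others, and cdc20 at 0.49 against -0.49 and -0.20. The narrowest spread of genotype means, 0.07, was in ccnb1l, which lay between -1.33 and -1.13 on all arrays and is 1 of the 5 members of unknown scaling.

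None of the 5 probe sets for G1 and S phase cyclins and kinases passed limma in any contrast, and their smallest F-test adjusted p was 0.204, for ccne1. At an unadjusted p under 0.05 between 0 and 2 of them passed per contrast, where 13% to 22.7% of all probe sets did. The 5 probe sets are those of cdk2, cdc7, ccnd1 and ccne1. No member probe set carries the symbol cdk4, cdk6, ccnd2 or ccne2. Cyclin E, the product of ccne1, opens S phase together with Cdk2. The values of ccne1 were 0.27, 0.03 and 0.04 in wild type, 0.45, -0.02 and -0.04 in BRAF, 0.17, 0.0062 and -0.0062 in p53 and -0.30, -0.35 and -0.12 in BRAF;p53. All BRAF;p53 arrays lay below all others, with a difference of -0.37 ± 0.14 from wild type (limma adjusted p = 0.253). The kinase gene cdk2 had -0.34 ± 0.13 in BRAF and -0.33 ± 0.13 in p53 against wild type (limma adjusted p = 0.173 and 0.281). Cyclin D1, which couples growth signals to the cycle and lies downstream of ERK, had differences from wild type of 0.05 and -0.05 in BRAF embryos on its 2 probe sets (limma adjusted p = 0.861 and 0.807). The second of them had the narrowest spread of the group, 0.08.

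**Figure D3:**
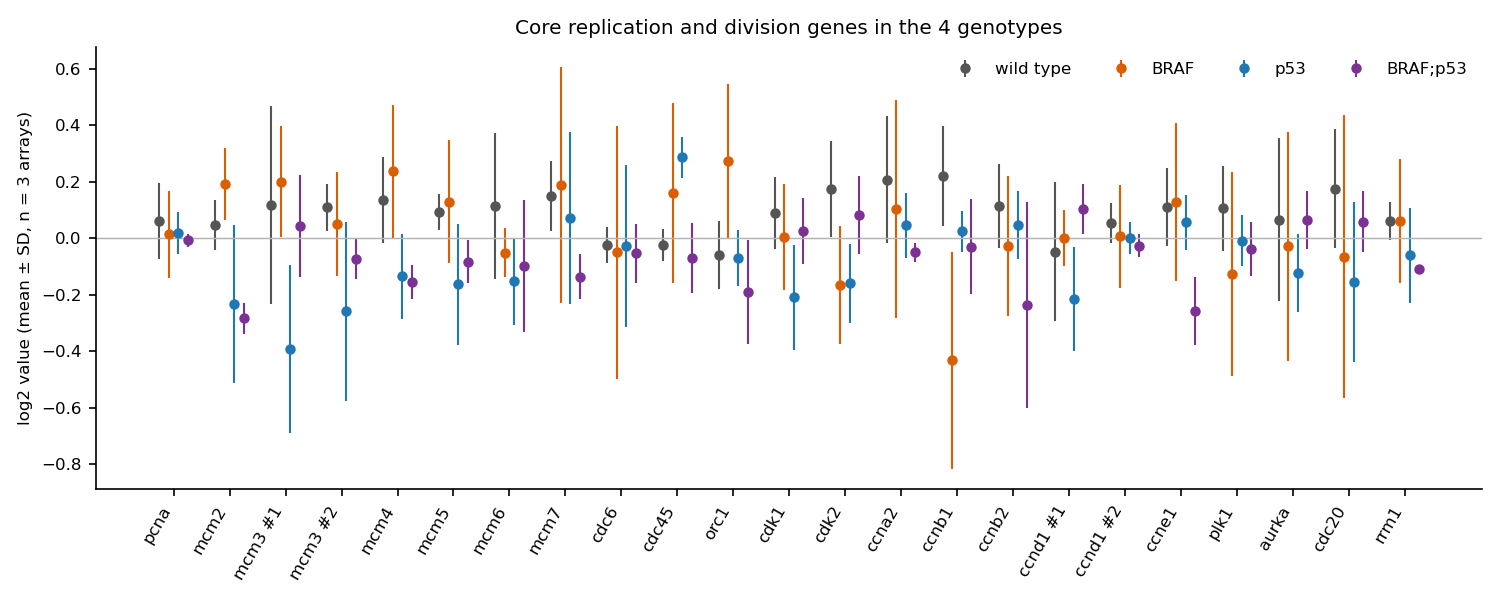
Mean log2 value and SD (error bars, n = 3 arrays) of the clamp, helicase, cyclin and kinase genes in the 4 genotypes, with 0 as the median of the 12 arrays and # for the probe sets of a gene. Most error bars overlap, and pcna stays between -0.0076 and 0.06.

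The Mcm helicase and origin genes gave 1 call in all contrasts, and most of their small differences shared a sign. In BRAF;p53 embryos 18 of the 19 licensing probe sets lay below wild type, with a median of -0.11, where 53.9% of all probe sets lay below. Also 18 of 19 lay below BRAF embryos, with a median of -0.21, where 60.4% of all lay below. The 2 counts share the BRAF;p53 arrays, and neither came with a call, since 0 of 19 passed limma in either contrast, with 2 and 4 at an unadjusted p under 0.05 where 13% and 22% of all passed. Against BRAF the lean depended on BRAF replicate 1, without which the median was -0.07 with 16 of 19 below. Against wild type it was -0.07 without wild-type replicate 2 and -0.05 without BRAF;p53 replicate 3, each with 15 of 19 below, and -0.20 without wild-type replicate 3, with 16 below. In BRAF embryos 14 licensing probe sets lay above wild type, a count that became 6 without BRAF replicate 1. In p53 mutants 14 lay below wild type, with a median of -0.18 that was -0.06 without wild-type replicate 2.

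The helicase subunit gene mcm2 had the lowest value of the 19 against wild type in BRAF;p53 embryos. Its values were -0.03, 0.14 and 0.03 in wild type, 0.34, 0.13 and 0.10 in BRAF, -0.25, -0.50 and 0.06 in p53 and -0.35, -0.26 and -0.24 in BRAF;p53. All BRAF;p53 arrays lay below every wild-type and BRAF array, while p53 replicate 3 lay inside their range. The difference was -0.33 ± 0.13 from wild type and -0.48 ± 0.13 from BRAF (limma adjusted p = 0.293 and 0.0674). For mcm4 these were -0.29 and -0.39 (limma adjusted p = 0.375 and 0.118), for mcm5 -0.18 and -0.21 (limma adjusted p = 0.681 and 0.356) and for mcm7 -0.29 and -0.32 (limma adjusted p = 0.645 and 0.355). The 2 probe sets of mcm3 gave -0.08 and -0.18 against wild type, and mcm6 gave -0.21. On mcm7 the values of BRAF embryos were 0.67, -0.08 and -0.03, so replicate 1 alone lay above the others. Cdc6, which loads the helicase, had the narrowest spread of genotype means in the group, 0.03, although its BRAF arrays ran from 0.40 to -0.50.

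The origin gene orc4 was the member of this group that passed, and in BRAF against p53. Orc4 is a subunit of the complex that marks origins. Its values were 0.53, 0.03 and 0.13 in BRAF and -0.19, -0.31 and -0.48 in p53, a difference of 0.56 ± 0.13 (limma adjusted p = 0.0278). Every BRAF array lay above every p53 array, and wild type and BRAF;p53 lay between them at means of 0.07 and -0.04. The call was lost without p53 replicate 2 (limma adjusted p = 0.0643) or p53 replicate 3 (limma adjusted p = 0.0831). In the same contrast 16 of 19 licensing probe sets were higher in BRAF, with a median of 0.16 where 60.9% of all probe sets were higher. Without BRAF replicate 1 these were 13 of 19 and 0.10. The widest spread of the group was on the first probe set of mcm3, at 0.59 ± 0.20 for BRAF against p53 (limma adjusted p = 0.0971). The other origin genes named by rule did not pass, with F-test adjusted p in limma of 0.176 for orc1, 0.165 for orc2, 0.622 for orc3, 0.653 for orc5 and 0.193 for orc6, and 0.263 for cdc45, whose product travels with the helicase.

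Of the 15 probe sets for polymerases, clamp and clamp loader, 3 passed limma's F test, where 9.43% of all probe sets did. In at least 1 contrast 4 of the 15 passed, and in different directions. For that count the share of all probe sets was not counted. The gene pole3, which encodes a small histone-fold subunit of DNA polymerase epsilon, had values of 0.0054, 0.39 and -0.03 in wild type and -0.70, -0.68 and -0.58 in BRAF. In p53 it stood at 0.06, 0.15 and -0.24, and in BRAF;p53 at 0.33, 0.40 and -0.0054. The 3 BRAF arrays lay below the other 9, which overlapped with each other. It fell by 0.78 ± 0.15 in BRAF embryos against wild type (limma adjusted p = 0.01) and was higher by 0.90 in BRAF;p53 than in BRAF (limma adjusted p = 0.00732), and both calls held in all 12 fits without 1 array. The difference between BRAF and p53 was -0.64 (limma adjusted p = 0.0248), lost without BRAF replicate 1 or 2 or p53 replicate 1 or 2 with an adjusted p of 0.0583 to 0.0794. The interaction was 1.03 ± 0.21 (limma adjusted p = 0.0243). It was lost without wild-type replicate 2, BRAF replicate 2 or BRAF;p53 replicate 1 or 2, with an adjusted p of 0.052 to 0.0722.

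The gene pold2, which encodes the second subunit of polymerase delta, moved the other way. Its values were 0.10, -0.12 and 0.15 in wild type, 0.99, 0.53 and 0.51 in BRAF, -0.20, -0.03 and -0.41 in p53 and 0.03, -0.25 and -0.19 in BRAF;p53. All 3 BRAF arrays lay above the other 9. It rose by 0.63 ± 0.15 in BRAF embryos against wild type (limma adjusted p = 0.0299), was 0.89 higher in BRAF than in p53 (limma adjusted p = 0.00523, and 0.059 with only the genotypes compared) and fell by 0.82 in BRAF;p53 against BRAF (limma adjusted p = 0.0119). The rise against wild type was lost without any of the wild-type arrays or BRAF replicate 1, with an adjusted p of 0.056 to 0.119, and the fall against BRAF without BRAF;p53 replicate 2 (limma adjusted p = 0.058). The interaction of pold2 was -0.56 (limma adjusted p = 0.184).

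Another delta subunit gene, pold3, stood at 0.02, 0.33 and 0.26 in wild type, -0.66, -0.43 and -0.32 in BRAF, -0.71, -0.12 and -0.02 in p53 and 0.04, 0.08 and 0.29 in BRAF;p53. Both single genotypes lay below wild type on every array, and BRAF;p53 lay within the wild-type range. It fell by 0.67 ± 0.17 in BRAF embryos (limma adjusted p = 0.0434), and its interaction was 1.096 ± 0.25 (limma adjusted p = 0.0381). The first held in 2 of 12 fits, those without p53 replicate 1 or 3, with an adjusted p of 0.0518 to 0.15 in the others. The second held in 4, those without wild-type replicate 1, BRAF replicate 3 or p53 replicate 1 or 3, with 0.0545 to 0.0941 in the others. The gene pola2, for the regulatory subunit of the polymerase alpha complex that lays down primers, was 0.52 ± 0.11 higher in BRAF than in p53 (limma adjusted p = 0.016). This held in all 12 fits without 1 array and was lost with only the genotypes compared (limma adjusted p = 0.133). Its BRAF values were 0.48, 0.03 and 0.32 and its p53 values -0.27, -0.26 and -0.21.

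The catalytic subunit genes pola1 and pold1 did not pass, with F-test adjusted p in limma of 0.387 for pola1 and 0.203 and 0.681 for the 2 probe sets of pold1. The accessory subunit genes pole2 and pole4 did not pass either (limma F-test adjusted p = 0.748 and 0.566). The clamp gene pcna, a common marker of proliferating cells, had the narrowest spread of the group. Its values were -0.06, 0.20 and 0.04 in wild type, 0.19, -0.09 and -0.05 in BRAF, 0.07, 0.05 and -0.07 in p53 and 0.02, -0.02 and -0.02 in BRAF;p53. The means of pcna spanned 0.07 and all groups overlapped (limma F-test adjusted p = 0.943). The widest spread belonged to rfc1, the large subunit of the clamp loader, and came from 1 array. Its BRAF values were -2.14, -0.45 and -0.40, while the other 9 arrays lay between -0.27 and 0.33. The difference from wild type was -0.91 ± 0.36 (limma adjusted p = 0.177), so rfc1 was not called, although the BRAF arrays lay below all others.

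Deoxynucleotide supply was the group with the most calls for its size, with 4 of 5 probe sets past the F test where 9.43% of all probe sets passed. Both tk1 probe sets were among them, although they moved in opposite directions. The thymidine kinase gene tk1, whose enzyme salvages thymidine in S phase, is read by a pair of probe sets that disagreed. The S1 probe set stood at -0.20, -0.03 and -0.16 in wild type, 0.61, 0.36 and 0.80 in BRAF, 0.13, 0.08 and 0.03 in p53 and -0.35, -0.06 and -0.51 in BRAF;p53. The S2 probe set stood at 0.03, 0.30 and 0.14 in wild type, -0.90, -0.68 and -0.36 in BRAF, -0.15, -0.16 and -0.03 in p53 and 0.27, 0.24 and 0.24 in BRAF;p53. BRAF arrays were the 3 highest on the first and the 3 lowest on the second. Against wild type the first rose by 0.72 ± 0.13 and the second fell by 0.80 ± 0.13 in BRAF embryos (limma adjusted p = 0.0077 and 0.00341).

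The disagreement of the tk1 probe sets ran through the other contrasts. Against BRAF embryos, BRAF;p53 embryos had -0.90 on the first and 0.90 on the second (limma adjusted p = 0.0037 and 0.0031). The interactions were -1.11 ± 0.19 and 1.17 ± 0.18 (limma adjusted p = 0.00912 and 0.0054). These and the differences from wild type held in all 12 fits without 1 array. BRAF against p53 gave 0.51 and -0.54 (limma adjusted p = 0.0415 and 0.0285), which held in 3 and 7 of 12 fits. The adjusted p was 0.0522 to 0.103 in the 9 fits that lost the first, all but those without BRAF replicate 2 or BRAF;p53 replicate 2 or 3, and 0.0583 to 0.0808 in the 5 that lost the second, those without BRAF replicate 1 or 2 or any p53 array. With the replicate number as a block, the S1 probe set had an adjusted p of 0.0642 in BRAF against p53. The mean of both probe sets moved by -0.04 in BRAF against wild type. No direction can be given for tk1 as a gene.

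The ribonucleotide reductase genes differed between themselves. The large subunit gene rrm1 did not pass (limma F-test adjusted p = 0.579) and had the narrowest spread of the group, 0.17. The small subunit gene rrm2b, in mammals a p53 target that serves DNA repair, stood at 0.04, 0.33 and -0.04 in wild type, 0.07, -0.13 and -0.46 in BRAF, -0.28, -0.60 and -0.79 in p53 and 0.13, 0.09 and 0.13 in BRAF;p53. All p53 arrays lay below all wild-type and BRAF;p53 arrays, while BRAF replicate 3, at -0.46, lay within the p53 range. The difference of p53 from wild type was -0.67 ± 0.16 (limma adjusted p = 0.0687), just short of the threshold. BRAF;p53 lay higher than p53 by 0.67 (limma adjusted p = 0.0497), and the interaction was 0.96 ± 0.23 (limma adjusted p = 0.0462).

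Both rrm2b calls were fragile. The difference between BRAF;p53 and p53 held in 4 of 12 fits, those without wild-type replicate 2, BRAF replicate 1 or 3 or p53 replicate 1, with an adjusted p of 0.0668 to 0.174 in the others. The interaction held in 2, those without BRAF replicate 1 or p53 replicate 1, with 0.0584 to 0.114 in the others. The gene rrm2l, is named as a relative of the small subunit. Its values were 0.49, 0.02 and 0.05 in BRAF and -0.48, -0.42 and -0.58 in p53, with wild type at -0.0081, 0.03 and 0.0081 and BRAF;p53 at -0.06, 0.02 and -0.09. All p53 arrays lay below the other 9. BRAF exceeded p53 by 0.68 ± 0.12 (limma adjusted p = 0.00602). This held in all 12 fits without 1 array and was lost with only the genotypes compared (limma adjusted p = 0.0865). Against wild type, p53 had -0.50 (limma adjusted p = 0.0639).

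**Figure D4:**
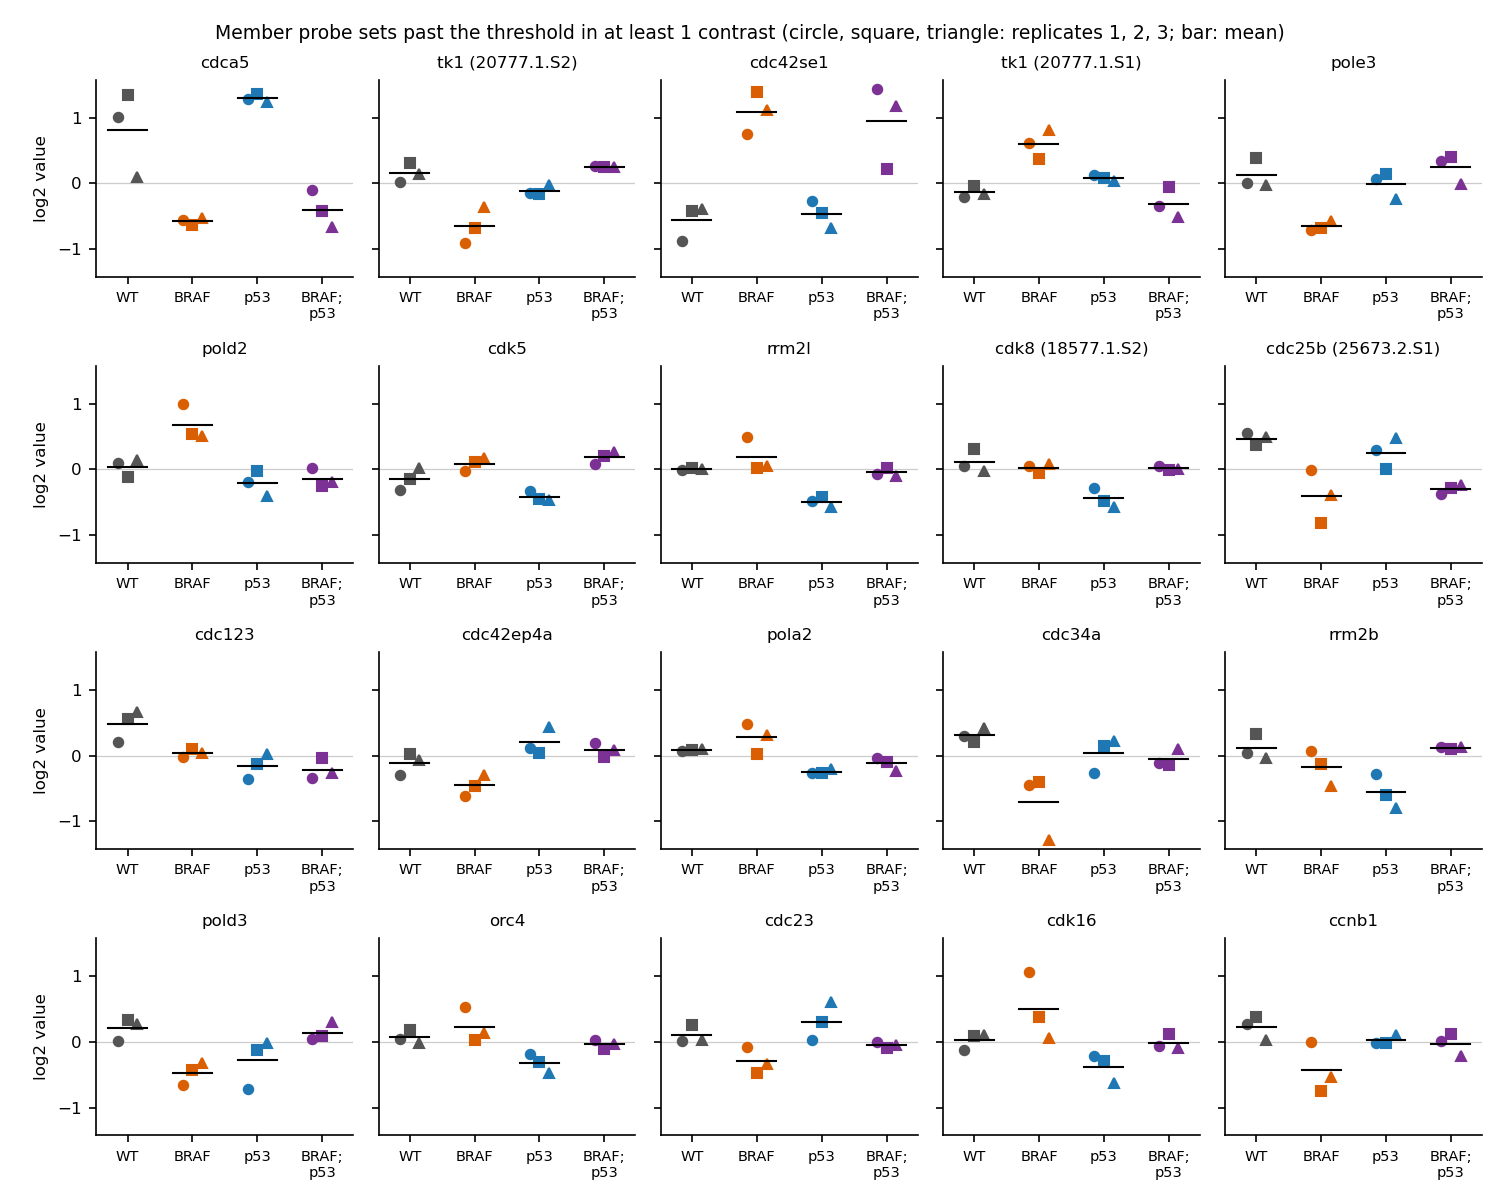
Log2 values on each array of the 20 probe sets past the threshold in at least 1 contrast (y axis, log2, where 0 is the median of the 12 arrays), with circle, square and triangle for replicates 1, 2 and 3 and a bar for the genotype mean (n = 3). The order is by F test, from cdca5, whose BRAF arrays lie at -0.64 to -0.53, to ccnb1.

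None of the 4 probe sets for inhibitors of cyclin-dependent kinases passed limma in any contrast, with 0 or 1 at an unadjusted p under 0.05. The unadjusted share of all probe sets ran from 13% to 22.7%. The 4 probe sets are those of cdkn1bb, cdkn3 and cdkn1ca. No member probe set carries the symbol cdkn1a, so nothing can be said of that gene here. The widest spread was in cdkn1ca, a relative of the p57 inhibitor that holds cells out of the cycle. Its values in BRAF were 0.13, -0.61 and -0.60 and in BRAF;p53 0.26, 0.23 and 0.0077, a difference of 0.53 ± 0.23 (limma adjusted p = 0.214). BRAF replicate 1 lay inside the BRAF;p53 range. The narrowest was a probe set of cdkn1bb, a relative of the p27 inhibitor, at 0.15. Of the anaphase-promoting complex genes, cdc23 passed in BRAF against p53. Its values were -0.08, -0.48 and -0.34 in BRAF and 0.02, 0.30 and 0.60 in p53, a difference of -0.60 ± 0.15 (limma adjusted p = 0.0327). All BRAF arrays lay below all p53 arrays. The call held in 5 of 12 fits and had an adjusted p of 0.0519 to 0.106 without BRAF replicate 2 or 3, p53 replicate 2 or 3 or any BRAF;p53 array. With the replicate number as a block the adjusted p was 0.0515. The other 2 subunit genes, cdc26 and cdc27, had F-test adjusted p of 0.626 and 0.538 in limma, with the narrowest spread in cdc26 at 0.15.

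Among members known for other work, cdc42se1 changed most. It encodes a small effector of the GTPase Cdc42, which shapes the actin skeleton, and has no core cell cycle role. Its values were -0.87, -0.42 and -0.39 in wild type, 0.74, 1.39 and 1.12 in BRAF, -0.26, -0.45 and -0.68 in p53 and 1.43, 0.22 and 1.18 in BRAF;p53. All 6 arrays with the transgene lay above all 6 without it. It rose by 1.64 ± 0.28 in BRAF embryos against wild type (limma adjusted p = 0.00551) and by 1.504 in BRAF;p53 against wild type (limma adjusted p = 0.0196). Against p53 mutants it rose by 1.41 in BRAF;p53 (limma adjusted p = 0.0244) and was 1.54 higher in BRAF (limma adjusted p = 0.00787). Both contrasts of BRAF embryos held in all 12 fits. BRAF;p53 against wild type was lost without wild-type replicate 1 or 3 or BRAF;p53 replicate 1 or 3 (limma adjusted p of 0.0507 to 0.0867), and against p53 without any p53 array or BRAF;p53 replicate 1 or 3 (limma adjusted p of 0.0505 to 0.108). The interaction was -0.24 ± 0.40 (limma adjusted p = 0.779).

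Other members of this group fell in BRAF embryos or in p53 mutants. The ubiquitin-conjugating enzyme gene cdc34a had 0.30, 0.21 and 0.41 in wild type and -0.44, -0.39 and -1.28 in BRAF, a fall of 1.01 ± 0.21 (limma adjusted p = 0.0163). It was lost without wild-type replicate 1 (limma adjusted p = 0.0526) or 3 (limma adjusted p = 0.0602), and BRAF replicate 3 lay far below the other BRAF arrays. The gene cdc123, whose product assembles the translation factor eIF2, had 0.21, 0.56 and 0.66 in wild type, -0.35, -0.13 and 0.02 in p53 and -0.34, -0.04 and -0.27 in BRAF;p53. In BRAF it stood at -0.02, 0.11 and 0.03, without a call against wild type. All other genotypes thus lay below wild type on every array. The gene fell by 0.63 ± 0.14 in p53 and by 0.69 in BRAF;p53 (limma adjusted p = 0.0449 and 0.0262). The first held in 3 of 12 fits, those without wild-type replicate 1, BRAF replicate 1 or p53 replicate 3, with 0.0553 to 0.147 in the others. The second held in 8, and had 0.0834 to 0.128 without wild-type replicate 2 or 3 or BRAF;p53 replicate 1 or 3.

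The kinase gene cdk8, part of the Mediator complex of transcription, had 0.06, 0.31 and -0.02 in wild type and -0.28, -0.48 and -0.56 in p53 on its S2 probe set, and all p53 arrays lay below the other 9. It fell by 0.56 ± 0.11 in p53 against wild type (limma adjusted p = 0.0254), while its other probe set had -0.06 (limma adjusted p = 0.851). The call was lost without wild-type replicate 1 or 2 or p53 replicate 2 or 3, with an adjusted p of 0.0599 to 0.0877. BRAF;p53 and BRAF exceeded p53 by 0.46 and 0.47 on the S2 probe set (limma adjusted p = 0.0474 and 0.0236). On the other probe set these differences were 0.15 and 0.21, without a call. The S2 calls held in 3 and 9 of 12 fits. BRAF;p53 against p53 held without wild-type replicate 2, BRAF replicate 1 or p53 replicate 1, with an adjusted p of 0.0551 to 0.18 otherwise. BRAF against p53 held unless BRAF replicate 3 or p53 replicate 2 or 3 was left out, with 0.0589 to 0.0717.

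The neuronal kinase gene cdk5 was also low in p53 mutants. Its values were -0.33, -0.44 and -0.46 in p53, -0.03, 0.11 and 0.18 in BRAF and 0.09, 0.20 and 0.26 in BRAF;p53, with wild type at -0.31, -0.14 and 0.03. Wild type lay above p53 by a small margin and overlapped BRAF. BRAF;p53 exceeded p53 by 0.59 ± 0.10 and BRAF exceeded p53 by 0.50 (limma adjusted p = 0.0109 and 0.014). The second held in all 12 fits without 1 array but not with only the genotypes compared (limma adjusted p = 0.0752). The first held in 11, and leaving out BRAF;p53 replicate 2 gave an adjusted p of 0.0508. The kinase gene cdk16 was 0.87 ± 0.21 higher in BRAF than in p53 (limma adjusted p = 0.0309), with BRAF at 1.06, 0.37 and 0.06. It was lost without BRAF replicate 2 or p53 replicate 2 or 3 (limma adjusted p of 0.058 to 0.0928). The gene cdc42ep4a, for another Cdc42 effector, had BRAF values of -0.62, -0.45 and -0.29, p53 values of 0.12, 0.04 and 0.44 and BRAF;p53 values of 0.20, -0.03 and 0.09. BRAF differed from p53 by -0.65 ± 0.13 (limma adjusted p = 0.0139), which held in all 12 fits without 1 array. It was lost with only the genotypes compared (limma adjusted p = 0.0916) and without BRAF replicate 1 and p53 replicate 3 together (limma adjusted p = 0.0623). BRAF;p53 exceeded BRAF by 0.54 (limma adjusted p = 0.0458), which held in 4 fits, those without wild-type replicate 1, BRAF replicate 3 or p53 replicate 2 or 3, with 0.0521 to 0.178 in the others. The narrowest spread, 0.07, was in cdk5rap2, which lay between -1.44 and -1.25 on all arrays and is another of the 5 members of unknown scaling.

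Probe sets of the same gene gave a second reading of each difference. Of the 97 genes 17 had more than 1 probe set, 41 in all. In BRAF against wild type all probe sets of a gene had the same sign in 7 of 17 genes, with a median gap between the highest and lowest of 0.245. The widest gaps were 1.92 in cdc25b and 1.53 in tk1. In p53 against wild type the sign was shared in 13 of 17, with a median gap of 0.123. In the other pairwise contrasts and the interaction it was shared in 7 to 9 genes. In the pairwise contrasts and the interaction by limma, 0 of the 17 genes had more than 1 probe set called in the same direction.

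**Figure D5:**
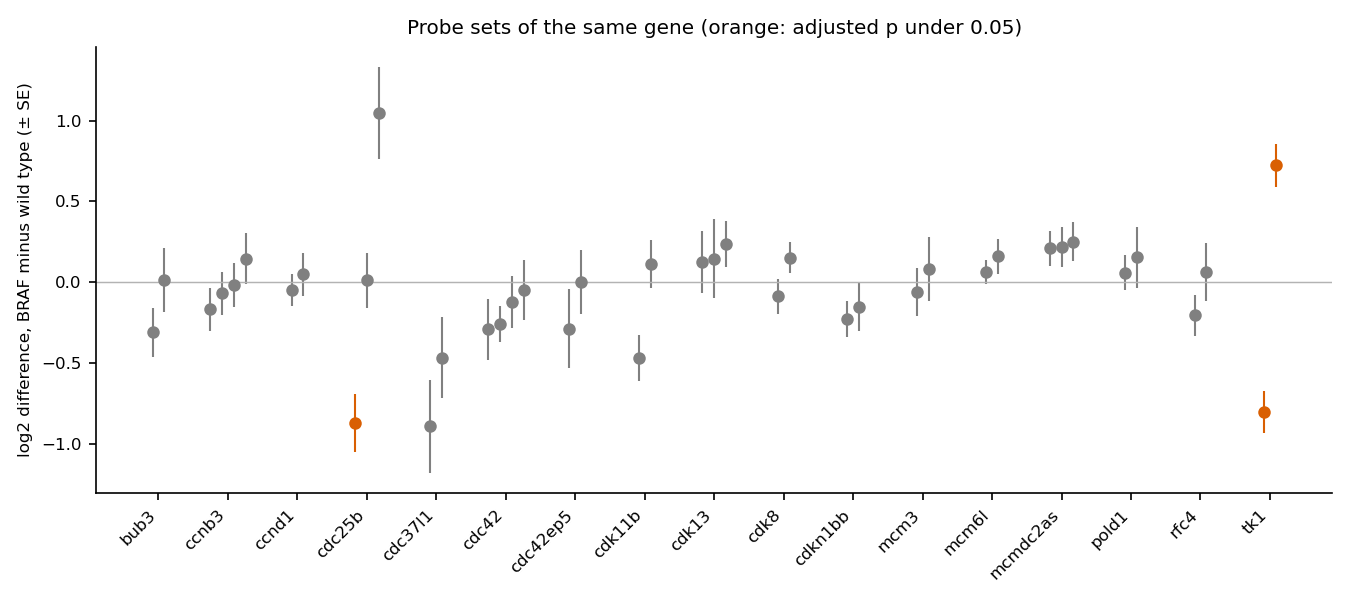
Log2 difference of BRAF minus wild type (y axis, log2, error bars SE, n = 3 arrays per genotype) for each probe set of the 17 genes with more than 1, with calls at an adjusted p under 0.05 in orange. The pair of tk1 lies at 0.72 and -0.80, and cdc25b spans -0.87 to 1.05.

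Genes of the cycle outside the symbol rule were taken from a list of 88, of which 67 were on the array with 87 probe sets. In BRAF against wild type 1 of the 87 was higher and 3 lower, where 6.41% of all probe sets passed. In p53 against wild type 0 were called by limma (1.83% of all), with 13 at an unadjusted p under 0.05 (14.3% of all). BRAF;p53 had 1 higher than wild type (1.95% of all) and 1 higher and 1 lower than p53 (2.94% of all). Against BRAF it had 4 higher and 0 lower by limma (4.5% of all), where 16 passed unadjusted (22% of all). BRAF against p53 gave 1 higher and 4 lower (7.44% of all), the interaction 2 (3.21% of all), and the F test 5 (9.43% of all).

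The gene nusap1, whose protein bundles spindle microtubules, is read by 3 probe sets, and on each the BRAF arrays lay below all others. On the one with the lowest p it stood at 0.07, 0.30 and 0.15 in wild type, -0.85, -0.89 and -0.84 in BRAF, -0.0035, -0.14 and 0.38 in p53 and 0.09, 0.0035 and -0.24 in BRAF;p53. The BRAF arrays lay below the other 9. It fell by 1.04 ± 0.14 against wild type (limma adjusted p = 0.00116), was 0.81 higher in BRAF;p53 than in BRAF (limma adjusted p = 0.00765) and had an interaction of 0.91 (limma adjusted p = 0.0296). A further probe set fell by 0.85 against wild type (limma adjusted p = 0.023), the third had -0.41 (limma adjusted p = 0.0545), and all 3 were higher in BRAF;p53 than in BRAF, by 0.45 to 0.82. The interactions of the further and the third probe set were 0.85 and 0.47, without a call (limma adjusted p = 0.124 and 0.146).

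The kinetochore gene nuf2 was lower with the transgene in both p53 states, with a difference of -0.44 for BRAF against wild type and -0.47 for BRAF;p53 against p53 (limma adjusted p = 0.0356 and 0.0442). In BRAF against p53 nuf2 had -0.75 (limma adjusted p = 0.00198). Its partner in the same complex, ndc80, was 0.53 higher in BRAF;p53 and 0.48 higher in BRAF than in p53 (limma adjusted p = 0.0464 and 0.0406). Against wild type, ndc80 in BRAF had only 0.16, with overlap between the arrays (limma adjusted p = 0.498). The calls of ndc80 were thus both against the p53 arrays, which stood at -0.29, -0.61 and -0.24. The gene gmnn, for geminin, which blocks a repeated licensing of origins, rose by 0.63 in BRAF and by 0.75 in BRAF;p53 against wild type (limma adjusted p = 0.0222 and 0.0196). In p53 mutants gmnn had 0.62 against wild type (limma adjusted p = 0.0539), and BRAF against p53 had 0.0095 (limma adjusted p = 0.973). The checkpoint gene mad2l1 was 0.42 higher in BRAF;p53 than in BRAF (limma adjusted p = 0.0309), with an interaction of 0.59 (limma adjusted p = 0.0411). The spindle midzone gene prc1b was lower in BRAF than in p53, with a difference of -0.49 (limma adjusted p = 0.041).

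Marker lists of other tissues held 4 to 24 probe sets each, so their counts of calls are small whatever their share. The values of 1 list varied widely between arrays. The median of 13 exocrine pancreas genes on single arrays ran from -1.86 on p53 replicate 3 to 1.49 on p53 replicate 2, and was -1.26, -1.11 and -0.96 on the BRAF;p53 arrays. The arrays that stood high in cell cycle genes also differed from their replicates here. Wild-type replicate 2 had -1.79, against 0.45 and 0.27 on wild-type replicates 1 and 3. BRAF replicate 1 had -0.19, against 1.32 and 1.28 on BRAF replicates 2 and 3. All 15 of its probe sets lay lower in BRAF;p53 than in BRAF, 12 of them without overlap between the arrays, where 60.4% of all probe sets lay lower and 18.3% did so without overlap. None was called in any contrast by limma, with 0 to 10 at an unadjusted p under 0.05. The 10 were in BRAF;p53 against BRAF, where 22% of all probe sets passed so. Across the contrasts 13% to 22.7% of all did, which also stands beside the unadjusted counts below. Progenitor, erythroid, lens, muscle and pigment lists had array medians between -0.37 and 0.21. Of 24 progenitor probe sets 1 was higher in BRAF;p53 than in p53 and 1 higher in BRAF;p53 than in BRAF, and 0 passed in the other contrasts by limma, with 2 to 6 at an unadjusted p under 0.05. Of 12 pigment cell and neural crest probe sets 3 passed the F test, where 9.43% of all did. Among these 12, 1 was higher in BRAF;p53 than in wild type, 2 higher in BRAF;p53 than in p53, 2 higher in BRAF;p53 than in BRAF and 1 lower in BRAF than in p53, where 1.95%, 2.94%, 4.5% and 7.44% of all passed. Of 4 lens probe sets 1 was lower in BRAF than in wild type, 1 lower in BRAF than in p53 and 1 higher in BRAF;p53 than in BRAF, with 1 in the interaction. Of 15 muscle probe sets 1 was higher in BRAF than in wild type and 1 higher in BRAF than in p53. For these lens and muscle counts, 6.41% of all probe sets passed in BRAF against wild type and 7.44% in BRAF against p53. In BRAF;p53 against BRAF 4.5% passed, and in the interaction 3.21%. Of 12 erythroid probe sets 0 passed in any contrast by limma, with 0 to 3 at an unadjusted p under 0.05. The part of these tissues in the differences of cell cycle genes was not tested.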

How the data were processed

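Expression was measured on 12 one-colour Affymetrix zebrafish arrays, 3 per genotype. The deposited values were made by the authors with GCRMA, per the submitters' processing notes, with the version not given in the sources used here. That the values are log2 was worked out from the deposited table itself, in which 13937 of 15617 probe sets have a linear median of 1 within 0.0001 and 1680 a lower one. Absolute brightness is therefore lost, and no filter on low signal or pseudocount could be applied. After 115 Affymetrix control probe sets were left out, limma 3.58.1 in R 4.3.3 was fitted to 15502 probe sets over all 12 arrays, with 1 mean per genotype and no block. The 6 pairwise differences, their interaction and the F test were adjusted by Benjamini-Hochberg with a threshold of 0.05, two-sided, and the code was tested on simulated data. Tables and plots were made in Python 3.11.15 with pandas 2.3.3, numpy 2.4.6 and matplotlib 3.10.9.

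Symbols are those of the platform annotation, and 118 of 121 members had an Entrez ID in the RefSeq gene table, all with the same symbol. Another 3 probe sets carried several symbols, 1 of them matching the rule, and were not counted. The members and the lists of other cell cycle genes and of progenitor, erythroid, pancreas, lens, muscle and pigment markers were chosen with earlier results of these data known. Named genes are all called members, a fixed set of core replication and division genes, and the widest and narrowest of each role. Of the fixed set, cdkn1a, cdk4, cdk6, ccnd2, ccne2, rrm2, aurkb, bub1 and pole had no member probe set under these symbols. Genes outside the members were named where called, and whether their calls held without 1 array was not counted. Correlations of same-numbered deviations between genotypes ran from -0.323 to 0.363. They were all over 0.1 only for BRAF with p53 (0.350, 0.136 and 0.136), so the value with a replicate block is given beside the calls of that contrast that it ended. The highest, 0.363, was for wild type with BRAF;p53 at replicate 3. Nothing in the labels says that the numbers pair samples, and the main fit paired none. Alternatives were quantile normalization, array centring, a trended robust fit, a replicate block, averaging of p53 samples 1a and 1b, 1 value per gene, only the genotypes compared, a minimum difference, leaving out probe sets of low median, each array, or BRAF replicate 1 with p53 replicate 3. Promoter sequences were not analysed here.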

Additional observations from a re-analysis of the deposited data

Results flagged for a closer look

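The effect of the transgene differed with and without p53 function in 5 probe sets of 4 member genes, by limma's interaction term adjusted over all probe sets. On the S2 probe set of tk1 BRAF minus wild type was -0.80 and BRAF;p53 minus p53 was 0.36, a difference of 1.1666 (limma adjusted p = 0.0054). On the S1 probe set of tk1 these were 0.72 and -0.39, a difference of -1.1117 (limma adjusted p = 0.00912), so the pair of probe sets went opposite ways. For pole3 they were -0.78 and 0.25, a difference of 1.0305 (limma adjusted p = 0.0243). For pold3 they were -0.67 and 0.42, a difference of 1.0955 (limma adjusted p = 0.0381). For rrm2b they were -0.28 and 0.67, a difference of 0.9585 (limma adjusted p = 0.0462). In each of the 5 the differences had opposite signs in the 2 p53 states, but they did not both pass limma. For tk1, pole3 and pold3 only BRAF against wild type passed, and for rrm2b only BRAF;p53 against p53. A reversal of the effect was therefore not shown. Of the member probe sets these are 5 of 121, where 3.21% of all probe sets passed the same test. With 1 array left out at a time, the interaction held in all 12 fits for both tk1 probe sets. It held in 8 of them for pole3, in 4 for pold3 and in 2 for rrm2b.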

How the results depend on the processing

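Of the 44 calls, 18 held in all 12 fits that left out 1 array and 11 held in fewer than 6. Counts of called members in those fits ranged from 5 to 13 for BRAF against wild type (main 10, lowest without wild-type replicate 3), 0 to 4 for p53 against wild type (main 2, lowest without wild-type replicate 2 or p53 replicate 2), and 0 to 6 for BRAF;p53 against wild type (main 3, lowest without BRAF;p53 replicate 1 or 3). They ranged from 2 to 8 for BRAF;p53 against p53, 3 to 7 for BRAF;p53 against BRAF, 10 to 17 for BRAF against p53, 2 to 5 for the interaction and 9 to 19 for the F test. BRAF against wild type gave 6 without wild-type replicate 1. For p53 against wild type BRAF replicate 1 left out gave 4, and each of wild-type 1 and 3, BRAF 2, p53 3 and all BRAF;p53 arrays gave 1. BRAF;p53 against wild type gave 1 without any wild-type array and 6 without BRAF replicate 1. BRAF;p53 against p53 gave 8 without BRAF replicate 1, 3 without wild-type 1 or 3, BRAF 2 or p53 2, and 2 without p53 3 or any BRAF;p53 array. BRAF;p53 against BRAF gave 3 without BRAF;p53 replicate 2. The interaction gave 2 without wild-type 2, BRAF 2 or BRAF;p53 1 or 2 and 3 without wild-type 3, p53 2 or BRAF;p53 3, and the F test 9 without wild-type 3 or BRAF;p53 1. Without BRAF replicate 1 and p53 replicate 3 together these 8 counts were 22, 5, 7, 11, 12, 13, 16 and 27. Of the 22, 3 were higher in BRAF and the rest lower. Counts over all 15502 probe sets rose as well, in the first 5 contrasts to 1766, 688, 916, 1227 and 1162. In the main fit those were 993, 284, 302, 456 and 698. Median differences of members ranged from -0.1322 to 0.0402, -0.1722 to -0.0665, -0.1331 to -0.0436, 0.0096 to 0.0443, -0.1187 to 0.013, -0.0178 to 0.156 and, for the interaction, -0.0227 to 0.1513. Without both arrays they were -0.1322 for BRAF against wild type, -0.0272 for BRAF against p53 and 0.1562 for the interaction. With only the genotypes compared, which leaves fewer arrays to estimate the spread, BRAF against wild type gave 5, p53 against wild type 0, BRAF;p53 against p53 2 and BRAF against p53 2, and the interaction and F test have no such fit. Counted at a difference of at least 1 on the log2 scale, these were 3, 0, 2 and 2, and BRAF;p53 against BRAF gave 0. Quantile normalization gave 4 for p53 and 5 for BRAF;p53 against wild type. The trended robust fit gave 1 for p53 against wild type and 3 for BRAF;p53 against p53 and for the interaction. Averaging p53 samples 1a and 1b gave 1 for p53 against wild type and 2 for BRAF;p53 against p53, and ended 12 of 44 calls. With 1 probe set per gene, p53 against wild type gave 1. With the mean of a gene's probe sets it gave 1, BRAF;p53 against BRAF 3 and the interaction 3, and the sign turned for cdc25b in BRAF against wild type (0.0616) and for the S1 probe set of tk1 in BRAF against wild type (-0.0397), BRAF;p53 against BRAF (6e-04), BRAF against p53 (-0.0129) and the interaction (0.0275), since the probe sets disagree. With the replicate number as a block the counts were 12, 3, 4, 4, 7, 13, 5 and 14, in the order above, and 4 of 44 calls were lost: ccnb1 in BRAF against wild type, cdk8 in BRAF;p53 against p53, and cdc23 and the S1 probe set of tk1 in BRAF against p53. The cause of the other shifts was not tested. Nothing in the labels says that samples with the same number share more than that number, in BRAF against p53 or elsewhere.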
